A study of Homo sapiens with 6 samples.

Results

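The CMC and mock libraries of HEK293T/17 ribosomal RNA that were reverse transcribed by SuperScript III in the presence of manganese were compared position by position. They are 2 of the 6 libraries of the series, with 1 library per group. Rows of the deposited 18S and 28S tables were compared where each of the 2 libraries had 100 or more reads crossing the row, which left 6924 of 6939 rRNA positions (1867 of 18S and 5057 of 28S). At each row the mismatch share was taken as the percent of crossing reads that carry a base other than the reference. The stop share was taken as 100% times the stops over the sum of stops and crossing reads. Each difference is CMC minus mock, in percentage points.

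HEK293T/17 is an established human embryonic kidney line that carries the SV40 large T antigen. Its total RNA above 200 nt was fragmented, then treated with CMC or mock-treated, and both samples were end-repaired, joined to a 3′ adapter, reverse transcribed, circularised after gel selection, barcoded and read in the same sequencing lane. The other libraries are a CMC and mock pair made by the same enzyme with magnesium and a pair made by HIV reverse transcriptase (HIV RT). The labels describe no alkaline wash following the CMC reaction and no molecular identifiers, and they do not say whether the libraries came from separate cultures. Only ribosomal RNA was tabulated, so the identity of the cell line could not be checked against marker genes.

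CMC is a carbodiimide that adds to the base-pairing edge of uridine, pseudouridine and guanosine. The adduct on pseudouridine survives alkali, whereas those on uridine and guanosine are largely removed by it, and a retained adduct obstructs reverse transcription. Pseudouridine is the C-glycoside isomer of uridine. In ribosomal RNA it is placed by snoRNA-guided dyskerin complexes, and it is dense around the decoding and peptidyl transferase regions. SuperScript III is an engineered murine leukaemia virus enzyme, and manganese is known to relax base selection by polymerases and to help them cross damaged template bases. The question addressed was therefore where the CMC library showed added misreading, and where it showed added termination.

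The rows on which the mismatch results turn are shown first, read from the reference column of the deposited tables (T stands for uridine). The capital is the row itself, with up to 7 nt on each side, numbered along the deposited rRNA sequences from 1. Ψ marks a position on a list of 98 established pseudouridines, which was written from general knowledge and not from these files.

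Ψ4471 of 28S, positions 4464 to 4478: atcattgTgaagcag
Ψ1643 of 18S, positions 1636 to 1650: gaggaatTcccagta
Ψ3734 of 28S, positions 3727 to 3741: aattcaaTgaagcgc
Ψ1692 of 18S, positions 1685 to 1699: tgcccttTgtacaca
Ψ34 of 18S, positions 27 to 41: atgcttgTctcaaag
U965 of 18S, positions 958 to 972: ggtgaaaTtcttgga

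The next rows led the stop results, and all but U1791 of 28S are on the list.

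Ψ1367 of 18S, positions 1360 to 1374: tgtctggTtaattcc
Ψ1445 of 18S, positions 1438 to 1452: aacttctTagaggga
Ψ822 of 18S, positions 815 to 829: tagagtgTtcaaagc
U1791 of 28S, positions 1784 to 1798: tcaaactTtaaatgg
Ψ572 of 18S, positions 565 to 579: gtccactTtaaatcc
Ψ1045 of 18S, positions 1038 to 1052: tcggaggTtcgaaga

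The CMC library held a median of 84243 crossing reads per row and the mock library 191101, and the ratio of CMC to mock reads had a median of 0.694 over the compared rows. At this depth counting error was small: over the 152 rows singled out by rule, the 95% Wilson half-interval of a share was at most 6.44 points, and at most about 1 point in the 123 of them with 5000 or more reads in both libraries. These intervals cover counting error only, since PCR reads without identifiers are not independent molecules. With 1 library per group no difference has a replicate check. A row was called where Fisher's exact test with Benjamini-Hochberg adjustment over all 6924 rows fell under 0.05 and the difference was at least 5 points, and such a call compares the reads of these 2 libraries, not the treatments. The size bar alone gave the same counts. Of the 15 rows left out, the 4 outermost had no crossing reads, and the other 11 were 28S rows with 59 to 99 mock reads. The nearest of these, G615 of 28S, had 99 mock reads and a mismatch difference of -7.49, while the nearest row kept, G616 of 28S, had 103 and a difference of -0.418.

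Uridine carried most of the rises in the CMC library. The mismatch share rose at 89 rows (1.29% of those compared), of which 68 were uridines, 13 guanosines, 5 cytidines and 3 adenosines. The stop share rose at 580 rows (8.38%), of which 303 were uridines, 119 guanosines, 98 cytidines and 60 adenosines. Uridine made up 1153 of the 6924 rows, so 5.90% of uridine rows rose in mismatch and 26.3% rose in stops, while guanosine, the next highest, reached 0.548% and 5.02%. Falls ran the other way. The mismatch share fell at 23 rows (0.332%), 15 of them cytidines and 1 a uridine. By nucleoside that was 0.686% of cytidine, 0.211% of guanosine, 0.165% of adenosine and 0.0867% of uridine rows. The stop share fell at 137 rows (1.98%), 63 of them cytidines and 5 uridines. Here the shares lay closer together outside uridine, at 2.88% of cytidine, 1.98% of guanosine and 1.81% of adenosine rows, against 0.434% of uridine rows. At a bar of 2 or 10 points instead of 5, rises numbered 373 or 17 for mismatch and 1129 or 258 for stops, and falls 104 or 3 and 563 or 34. Without listed positions and the rows beside them, 43 mismatch rises were counted.

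Uridine and then guanosine also had the highest medians over all rows, called or not. The median mismatch difference was 0.770 points at uridine (interval over rows 0.721 to 0.838, n = 1153), 0.286 at guanosine (0.263 to 0.306, n = 2372), 0.0755 at cytidine (0.0679 to 0.0840, n = 2185) and 0.0712 at adenosine (0.0602 to 0.0870, n = 1214). Nearly every uridine row was read less faithfully with CMC, with 1138 of 1153 higher, against 83.2% of guanosine rows and 66.5% of cytidine rows. The median stop difference was 1.40 points at uridine (1.21 to 1.62) and close to 0 elsewhere, at 0.0102 for guanosine, -0.0580 for adenosine and -0.0901 for cytidine. The uridine medians understate the total added signal, since reads pooled over all uridine rows gave 1.26 points of mismatch and 4.58 points of stops. Pooling also turned adenosine's stop difference to 0.0304.

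**Figure D1:**
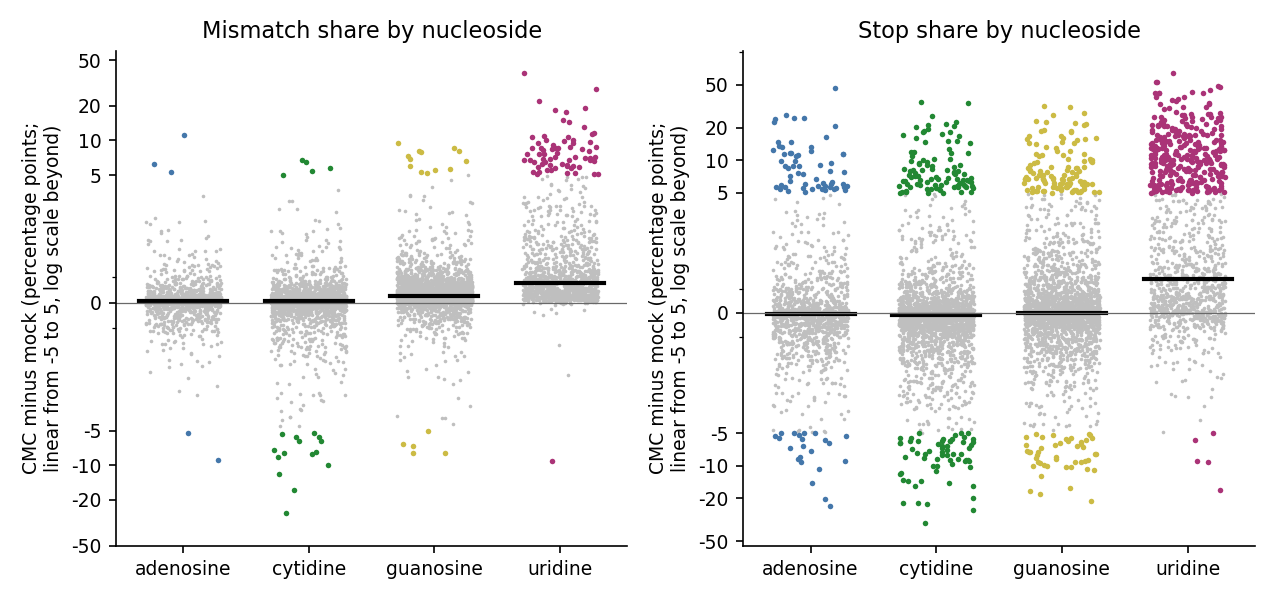
CMC minus mock for the mismatch share (left) and the stop share (right) at each of the 6924 rows, in percentage points, by nucleoside. Coloured points were called, grey points were not, and black bars are medians. Uridine stands highest in both panels, with medians of 0.770 and 1.40 points, and the deepest falls are at cytidine.

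Ψ4471 of 28S had the largest mismatch rise of any row. It was misread in 39.1% of reads with CMC (38.8 to 39.5%) and 0.342% in the mock library, on 75371 and 238997 crossing reads. Ψ1643 of 18S followed, misread in 28.6% (28.3 to 28.8%) with CMC and 0.387% (0.367 to 0.407%) in the mock library. Ψ3734 of 28S was misread in 22.3% of reads with CMC and 0.0937% in the mock library. For comparison, the median mismatch share of all uridines in the mock library was 0.150%. Ψ1692 of 18S reached 19.3% against 0.125%, Ψ34 of 18S 18.8% against 0.191% and Ψ1347 of 18S 15.1% against 0.0925%. The largest rise at a uridine not on the list was U965 of 18S, at 17.7% against 0.164%, which lies directly 5′ of the listed Ψ966. Ψ406 of 18S, Ψ1081 of 18S, Ψ1625 of 18S, Ψ4521 of 28S and the unlisted U3482 of 28S made up the rest of the 12 largest, with differences of 11.0 to 14.5 points. U3482 of 28S rests on 7150 CMC and 2068 mock reads in a GC-rich stretch, while the other 11 had at least 20232 reads in each library.

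Rows with the largest misreading were mostly not rows with the largest termination. At Ψ4471 of 28S the stop share was 5.82% of reads with CMC and 3.07% in the mock library. At Ψ1643 of 18S it was 1.81% against 2.41%, and at Ψ1625 of 18S 0.483% against 0.340%, none of these past the bar. U965 of 18S had the largest stop rise among the 12, with a stop share of 24.8% against 1.81%. Over all uridines, 32 of the 68 mismatch rises were also stop rises and 36 were not, and none was a stop fall. For comparison, 303 of all 1153 uridines (26.3%) rose in stops, so stop rises were more frequent among the misread uridines.

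Termination was led by other pseudouridines. At Ψ1367 of 18S the stop share was 73.1% (72.9 to 73.4%) with CMC and 9.27% (9.17 to 9.38%) in the mock library, while the mismatch share was 4.84% against 0.0512%. Ψ1445 of 18S stopped 56.8% (56.6 to 57.0%) with CMC and 3.71% (3.64 to 3.78%) in the mock library. Ψ822 of 18S stopped 65.6% against 12.9%, from the highest mock level among the 12 leading uridines. Misreading at these 3 rows was higher with CMC but under the bar, by 2.43 to 4.79 points. U1791 of 28S, an unlisted uridine beside the listed Ψ1792, stopped 53.4% against 4.90%. Ψ572 of 18S stopped 52.5% against 4.85%, Ψ1045 of 18S 47.9% against 3.57% and Ψ4361 of 28S 44.5% against 1.91%. The other 5 leaders were Ψ649 and Ψ801 of 18S, Ψ3762 and Ψ4312 of 28S and U3441 of 28S, with CMC stop shares of 42.8 to 52.0%. U3441 of 28S had only 262 CMC and 123 mock reads, and its CMC share of 43.7% has an interval of 39.2 to 48.2%.

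The 98 listed pseudouridines stood above the other uridines in both shares. Their median mismatch difference was 3.98 points (interval over sites 3.05 to 4.85), against 0.705 points at the 1022 uridines with no listed modification (0.635 to 0.751). Their median stop difference was 8.35 points (5.58 to 11.2) against 1.19 (1.03 to 1.41). Reads pooled over the 98 sites gave 6.42 points of mismatch and 17.5 points of stops. All 98 had a higher mismatch share with CMC, from 0.721 to 38.8 points, and 95 had a higher stop share. Of the 98, 37 were called for mismatch and 63 for stops, and no listed site was called as a fall. Split by both measures, 20 were called for both, 17 for mismatch alone, 43 for stops alone and 18 for neither. The 18 with neither call still ranged from 0.859 to 4.83 points of added mismatch. Stops had no such floor there, at -0.578 to 4.67 points.

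Unlisted uridines, far more numerous, also rose. They gave 233 of the 303 uridine stop rises and 30 of the 68 mismatch rises, that is 22.8% and 2.94% of the unlisted uridines. A further 13 uridines whose pseudouridylation is doubtful had a median mismatch difference of 1.11 points (0.747 to 2.55). Their median stop difference was 0.818 points (-0.506 to 9.19), and 4 of them were called for stops. Of the 24 doubtful entries, the other 11 did not match the base in the tables and were dropped. The 2′-O-methyl group is a backbone mark placed by fibrillarin complexes. Uridines that carry it by the list had a lower mismatch median, at 0.416 points (0.239 to 0.626, n = 18). Their stop median was 0.694 points, with an interval of 0.119 to 1.76 that holds the 1.19 of unlisted uridines.

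Positions with other base modifications changed in their own ways. U1248 of 18S carries the hypermodified m1acp3Ψ in the loop that touches P-site tRNA, and its blocked base-pairing edge makes it misread without any CMC. It was the only uridine whose mismatch share fell past the bar, with 50.4% (50.2 to 50.7%) with CMC and 59.7% (59.5 to 59.9%) in the mock library. Its stop share was 3.68% against 1.85%, not past the bar, whereas C1247 of 18S, the row directly 5′ of it, stopped 26.8% against 8.52%. U4530 of 28S, an m3U whose methyl group also sits on the pairing edge, had a mismatch share of 28.9% against 27.4%, while its stop share rose to 17.7% from 2.15%. A1322 of 28S carries m1A, a strong block to reverse transcription, and its stop share fell past the bar, being 63.2% (63.0 to 63.3%) with CMC and 77.5% (77.4 to 77.6%) in the mock library. Its mismatch share was 32.0% against 34.1%.

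Of the remaining listed base modifications, 1 passed the bar, in stops. G1639 of 18S, the m7G written by BUD23 with TRMT112, had a called stop fall, to 7.39% from 15.1%, and a mismatch share of 2.56% against 1.35%. The dimethyladenosines A1850 and A1851 of 18S, made by DIMT1, had stop shares of 37.1% against 41.9% and 0.0313% against 0.0223%. Mismatch shares were 1.21% against 1.69% and 1.61% against 1.25% at the NAT10 targets C1337 and C1842 of 18S, which carry ac4C. At the m6A rows A1832 of 18S and A4220 of 28S the mismatch differences were 0.0387 and 0.0308 points. At the m5C rows C3782 and C4447 of 28S they were -0.000385 and 0.589. None of these rows was called for mismatch.

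Which wrong base was read differed by nucleoside. Pooled over all rows, a misread uridine was read as C in 52.4%, as A in 26.0% and as G in 21.7% of mismatched CMC reads, against 51.5%, 29.4% and 19.2% in the mock library. Misread cytidine and adenosine were mainly read as U, in 77.0% and 73.2% of mismatched CMC reads (82.5% and 78.3% in the mock library). Misread guanosine was read as U in 57.9% and as A in 30.2%. At the 98 listed pseudouridines C took 70.3% of mismatched CMC reads, A 20.9% and G 8.75%, compared with 47.1%, 36.1% and 16.9% in the mock library. The mean of the rows' own shares read as C, over rows with enough mismatched reads in both libraries, was 61.6% with CMC and 54.6% in the mock library at these sites. Over all uridines that mean was lower with CMC, at 51.1% against 59.7%, whereas the pooled share was slightly higher.

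The following uridines are the called mismatch rises with the highest share of each wrong base, so that their one-sidedness follows from the choice. The capitals mark the row and, within 2 nt of it, every base equal to the one most often read there.

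U965 of 18S, read as A: ggtgaAATtcttgga
U1242 of 18S, read as A: ggcttAATttgactc
U3645 of 28S, read as A: gtttaAtTAAaacaa
U4354 of 28S, read as G: gacctttTGGgtttt
U4358 of 28S, read as G: ttttgGGTtttaagc
U3372 of 28S, read as G: cgtccGcTGGgggcg
Ψ1643 of 18S, read as C: gaggaatTCCcagta
U3482 of 28S, read as C: ctcctCCTCggcgcg
U792 of 28S, read as C: ctcctCCTCCcccgt

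U965 of 18S was read as A in 99.1% of 14848 mismatched CMC reads, and U1242 of 18S in 98.5%. U4354 of 28S was read as G in 98.3% and U4358 of 28S in 95.8%. Ψ1643 of 18S was read as C in 99.3%, and U3482 of 28S in 99.2%. In every one of these 9 windows the base read also stands within 2 nt of the row. Some of the rows had the same preference in the mock library, where U3645 of 28S was read as A in 99.5% of mismatched reads and U4354 of 28S as G in 92.4%. At U1242 of 18S the preference was weaker there, at 58.8% A. Other leading pseudouridines had no such neighbour: Ψ4471 and Ψ3734 of 28S were both read as C in 82.5% of mismatched reads with no C within 2 nt, and Ψ1692 of 18S in 91.3%.

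The match between the base read and a nearby template base was described over the 235 uridines with a mismatch rise of at least 2 points and at least 100 mismatched CMC reads, a set chosen for the size of the rise and not for the base read. Where the base 2 nt 3′ was G, the median share read as G was 63.0% (72 rows), and elsewhere 4.81% (163 rows). With G 2 nt 5′ it was 49.3% against 5.37%, and with G directly 3′ it was 25.4% against 3.26%. For C the medians were 90.3% with C directly 3′ and 41.4% without, and 89.3% against 45.8% with C 2 nt 3′. For A they were 28.5% against 6.14% with A 2 nt 5′, and 28.5% against 7.90% with A directly 3′. Of the 62 rows read mainly as G, 61 had a G within 2 nt, compared with 161 of all 235 rows. Of the 39 read mainly as A, 35 had an A within 2 nt (133 of 235), and of the 134 read mainly as C, 92 had a C there (134 of 235).

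Of the 235 rows, 222 had at least 50 mismatched mock reads, and the mock medians are over these. In the mock library the contrast was smaller for G 2 nt away but not for G directly 3′. There the share read as G was 44.7% with G 2 nt 3′ and 13.9% without, 25.9% against 16.6% with G 2 nt 5′, and 37.3% against 9.74% with G directly 3′. Much of the match for C was also present there. The mock share read as C was 82.9% against 46.1% with C directly 3′, and 74.8% against 47.5% with C 2 nt 3′. For A it was 23.1% against 14.4% with A 2 nt 5′, and 25.4% against 15.5% with A directly 3′. At the 837 uridines with a smaller or no rise and as many mismatched reads, the CMC library gave 38.1% against 13.3% for G 2 nt 3′. The contrast for G was lower farther away, at 15.2% against 7.22% for G 3 nt 3′ of the 235 rows. Neighbouring rows overlap in sequence and share reads, so these medians describe the 2 libraries and carry no test. Bowtie 1.0, named in the submitters' processing notes, aligns without gaps, and the tables have no column for insertions or deletions. Their part in the match was not tested.

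**Figure D2:**
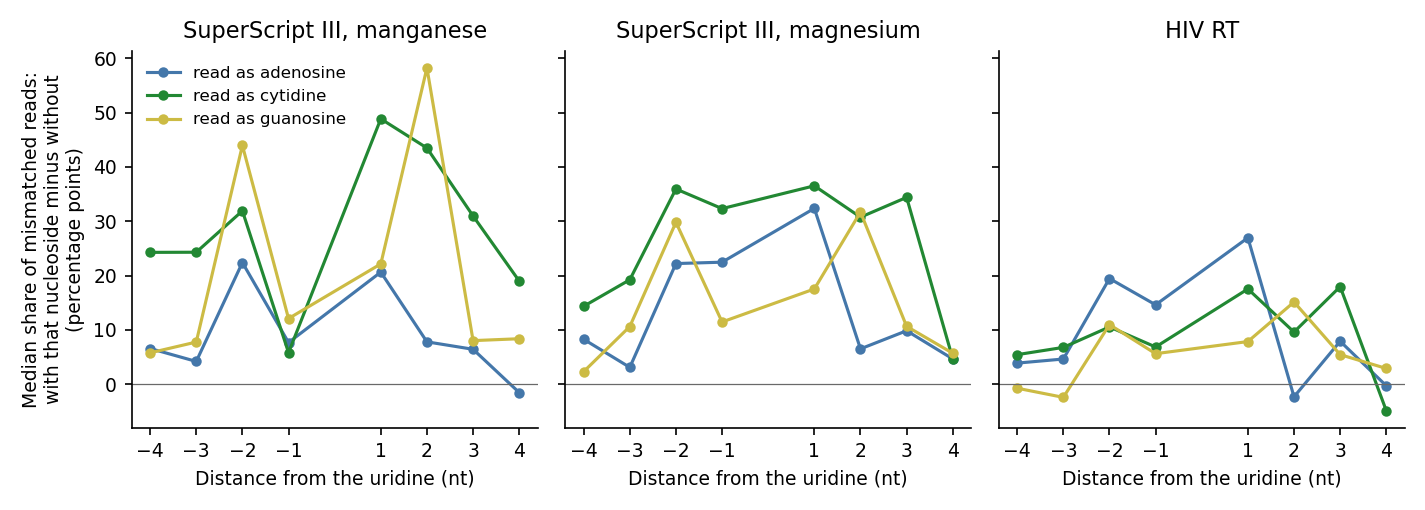
For uridines with a mismatch rise of at least 2 points in the manganese pair, the difference in the median share of mismatched CMC reads carrying a given base between rows with and without that nucleoside at each distance (negative is 5′), in percentage points, for the 3 conditions. With manganese the largest gap is for guanosine 2 nt 3′ of the row, 63.0% against 4.81%.

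In the other conditions the same rows gave a smaller contrast for G 2 nt 3′. With magnesium 197 of the rows had enough mismatched reads, and the share read as G was 39.6% with G 2 nt 3′ against 7.88% without. With HIV RT, over 232 rows, it was 23.2% against 8.05%. The contrast for C directly 3′ was also smaller, at 84.8% against 48.3% with magnesium and 75.9% against 58.4% with HIV RT. For A directly 3′ it was larger than with manganese, at 41.6% against 9.23% with magnesium and 38.0% against 11.1% with HIV RT. The order of the conditions thus depended on the base and the distance. Ψ1643 of 18S was read as C in 95.2% of mismatched reads with magnesium and 90.9% with HIV RT. U1642 of 18S, directly 5′ of it, was read as C in 57.2% with manganese but in 8.26% and 3.97% with magnesium and HIV RT. The base read at U1642 thus differed between conditions, and that at Ψ1643 did not.

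Misreading rose at 21 rows that are not uridines, and most of these lie close to one. A uridine stood within 2 nt of 15 of the 21 (71.4%), compared with 47.2% of all 5771 rows of adenosine, cytidine and guanosine. Among those with deep coverage in both libraries were G891 of 18S, misread in 9.93% of reads with CMC and 0.442% in the mock library, G151 of 28S, at 8.44% against 0.375%, and G288 of 18S, at 8.26% against 0.241%. G891 and G288 were read as U, in 97.4% and 95.5% of mismatched reads, and G151 as A in 89.4%. C2634 of 28S, inside a uridine-rich stretch, was misread in 7.29% against 0.460% and read as U in 97.6%. C1674 of 28S was misread in 5.17% against 0.131%, also as U.

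G891 of 18S: ctattTTGTTggttt
G288 of 18S: cggctTTGgTgactc
G151 of 28S: gggacAtGtggcgta
C2634 of 28S: ctcttTTCTTtgtga
C1674 of 28S: gaagtTTCcctcagg

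The capitals again mark the row and, within 2 nt, the base most often read there. Guanosine rows as a class showed a gradient with distance to uridine. Their median mismatch difference was 0.499 points with a uridine directly beside them (n = 637), 0.375 at 2 nt (n = 416), 0.258 at 3 nt (n = 275) and 0.182 farther away (n = 1044). The gradient was not particular to guanosine. Adenosine rows went from 0.169 points beside a uridine to 0.00939 at over 3 nt, and cytidine rows from 0.179 to 0.0176. Guanosine is itself a CMC target, and an adduct on the guanosine and one on the uridine cannot be told apart here. C1180 of 18S, in sequence with 38.1% GC, was misread in 11.7% against 6.18% on 65873 and 224352 reads, mainly as A. Further rises at rRNA ends or in GC-rich 28S included A2 of 18S (20.5% against 9.37%), G3543 of 28S (13.7% against 5.13%), G629 of 28S (10.6% against 2.69%), C3000 of 28S (14.4% against 7.89%), A3343 of 28S (15.3% against 9.01%) and A3506 of 28S (38.3% against 33.0%), on 925 to 12442 reads in either library.

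Stops at rows other than uridine clustered on the 5′ side of a uridine. In these tables a stop is booked 2 rows 5′ of the first row at which the read is counted: in the 4 tables of the manganese pair the crossing reads gained from row 2 to row 3 equal the stops at row 1, and no row gained more reads than its stops allow. The row between is in neither count, so whether the uridine itself was copied in a read that stopped at the row 5′ of it is not shown by the tables. Of the 277 stop rises at adenosine, cytidine and guanosine, 196 (70.8%) were at rows with a uridine directly 3′, which make up 15.6% of such rows. Of rows followed by uridine, 21.8% rose in stops, against 3.02% before adenosine, 1.91% before guanosine and 0.610% before cytidine. The share was much the same for each nucleoside, at 21.6% of adenosines, 21.6% of cytidines and 22.0% of guanosines followed by uridine. A listed pseudouridine was the next base for 39 of the 196, and for 71 of all 901 rows before uridine, so that 39 of those 71 rose.

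**Figure D3:**
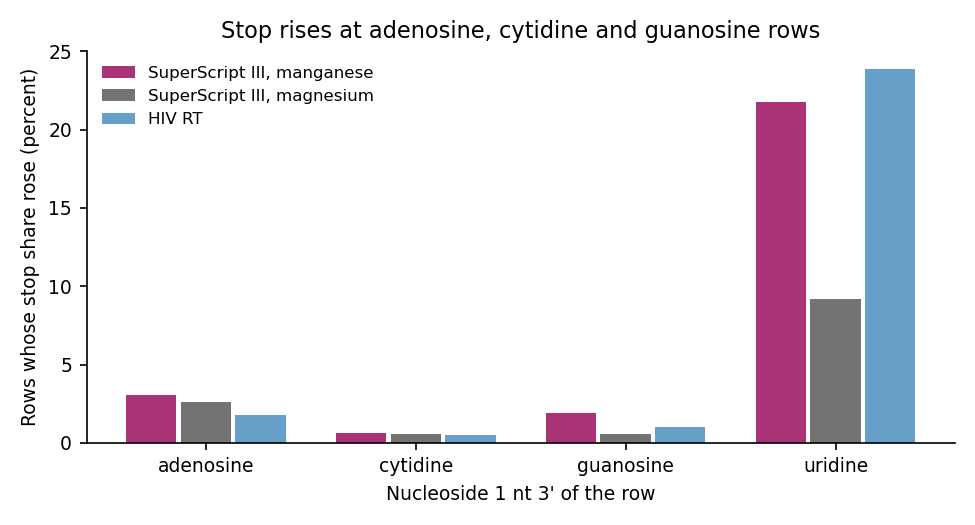
Percent of adenosine, cytidine and guanosine rows whose stop share rose, by the nucleoside directly 3′ of the row, for the 3 conditions, each against its own mock library. Rows before uridine stand out in all 3, at 21.8% with manganese, 9.21% with magnesium and 23.8% with HIV RT.

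The rows that carry this are shown with 2 capitals, the row itself and the base directly 3′ of it.

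A4298 of 28S, 5′ of Ψ4299: gatcttgATtttcag
G1366 of 18S, 5′ of Ψ1367: ttgtctgGTtaattc
G3638 of 28S, 5′ of Ψ3639: tccgactGTttaatt
A685 of 18S, 5′ of Ψ686: tagttggATcttggg
C1859 of 28S, 5′ of Ψ1860: tgggccaCTtttggt
C554 of 28S, 5′ of U555: gccctccCTtccccc

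A4298 of 28S had the largest stop rise of any row that is not a uridine, with 48.6% of reads with CMC and 1.54% in the mock library. Its neighbour Ψ4299 stopped 23.2% against 2.25%, a smaller share than at the row 5′ of it. G1366 of 18S stopped 35.0% against 3.24%, G3638 of 28S 28.9% against 1.72%, A685 of 18S 27.3% against 1.32% and C1859 of 28S 27.3% against 1.78%. At Ψ1367 of 18S the order was the reverse, since the site itself stopped 73.1% and the row 5′ of it 35.0%. C554 of 28S, beside an unlisted uridine, stopped 42.2% against 8.56% on 1670 and 1304 reads. C1019 of 28S, which stopped 46.6% against 11.9%, has no uridine next to it, and with magnesium and HIV RT its difference was 3.60 and 8.97 points. It is among the 4 stop calls farthest from the other conditions.

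Around the 98 listed sites the stop rises formed a shoulder on the 5′ side, and the 3′ side was raised too. Leaving out rows that are themselves listed, 55 of 95 rows directly 5′ of a site rose in stops (median 6.00 points), as did 63 of 98 sites (median 8.35). At 2 nt 5′ it was 29 of 90 rows, at 3 nt 5′ 14 of 93 and at 4 nt 5′ 19 of 93. At 5 nt 5′ it was 8 of 97, which is 8.25% and close to the 8.38% over all rows. Directly 3′ it was 32 of 95. At 2 to 5 nt 3′ it was 20 or 21 rows in each case. That is 21.5 to 22.6% of rows, so the 3′ side stayed above the share over all rows at every distance. Mismatch rises were concentrated at the site: 37 sites rose but 5 of 95 rows directly 5′ and 4 of 95 directly 3′. At the 71 sites whose 5′ neighbour is not a uridine, 39 neighbours rose, and the neighbour's stop difference exceeded the site's in 36. Of these 71, 29 pairs rose at both rows, 15 at the site alone, 10 at the neighbour alone and 17 at neither.

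**Figure D4:**
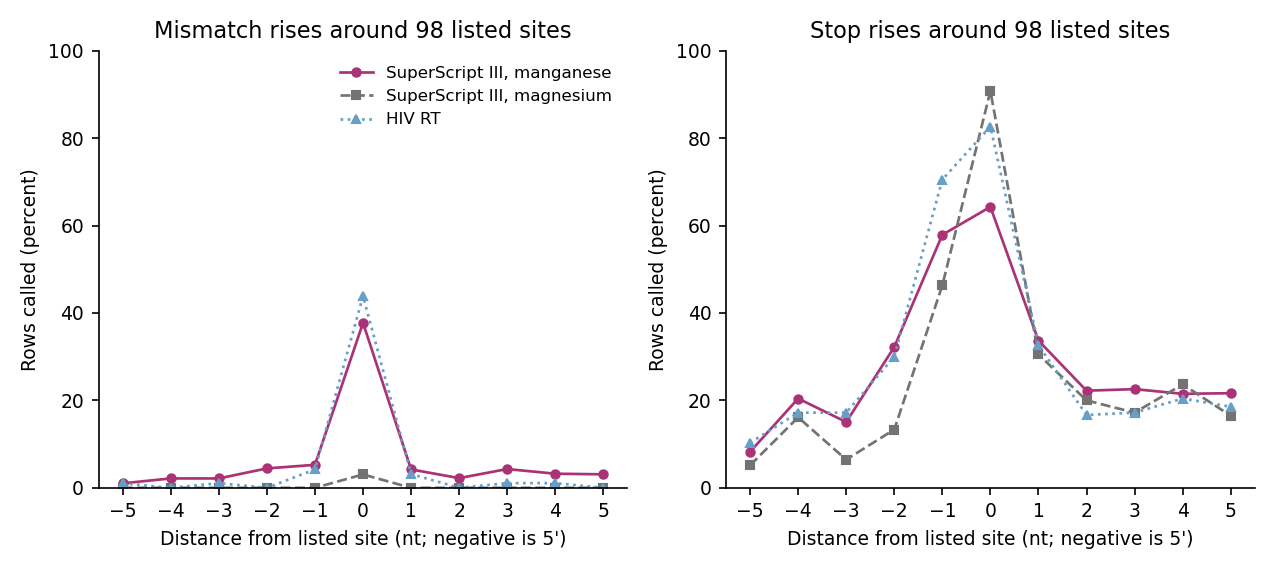
Percent of rows called for a mismatch rise (left) and a stop rise (right) at each distance from the 98 listed pseudouridines (negative is 5′), in the 3 conditions, with other listed sites left out. With manganese mismatch rises peak at the site itself (37.8%), while stop rises reach 57.9% of rows directly 5′ and 64.3% of the sites.

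Unlisted uridines had a similar shoulder. Around the 233 unlisted uridines called for stops, 90 of 222 rows directly 5′ also rose (median 3.71 points) and 56 of 217 directly 3′. These uridines were chosen by their own stops, so their own values are no result. Neighbours that are not uridines cannot be among the chosen rows. Of those, 61 of 163 directly 5′ rose (median 2.57 points) and 29 of 160 directly 3′. Around the 30 unlisted uridines called for mismatch, 11 of 27 rows directly 5′ rose in stops. The base directly 3′ of a uridine also went with its own stops: 116 of 188 uridines followed by adenosine rose (61.7%), 95 of 252 followed by uridine (37.7%), 60 of 331 followed by guanosine (18.1%) and 32 of 382 followed by cytidine (8.38%). The mismatch medians ran in another order, at 1.09 points before guanosine, 0.852 before uridine, 0.637 before cytidine and 0.552 before adenosine.

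The 580 stop rises formed 356 runs of consecutive rows, single rows included, and the longest held several uridines. Uridine density was not compared between long and short runs. The 3 longest runs are shown with the called rows in capitals.

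Positions 1237 to 1247 of 18S: tgcggCTTAATTTGACtcaac
Positions 4294 to 4303 of 28S: ttgatCTTGATTTTCagtac
Positions 2631 to 2639 of 28S: tctctTTTCTTTGTgaagg

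The first run covers 11 rows, 5 of them uridines and 2 of those listed, and ends directly 5′ of the m1acp3Ψ. Its differences ran from 6.00 points at U1243 to 38.1 points at Ψ1238, where the stop share was 48.2% against 10.1%. The second covers 10 rows with 6 uridines and peaks at A4298, and the third covers 9 rows with 7 uridines and reaches 19.1 points at U2637. Mismatch rises formed runs of at most 2 rows, for example Ψ814 with Ψ815 of 18S, and U1642 with Ψ1643 of 18S. The crossing reads also thin out along the stop runs, from 107674 at U1248 of 18S to 21361 at C1237 in the CMC library and from 205882 to 165231 in the mock library.

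Rows called for a lower share in the CMC library were of another kind. They lay mostly in GC-rich, thinly covered sequence of 28S and had high shares in the mock library. A fall of at least 5 points needs a mock share of at least 5%, so the high mock shares follow in part from the call itself. The 137 stop falls had a median stop share of 14.4% in the mock library and 6.43% with CMC, and 118 of them were above 10% in the mock library. The 23 mismatch falls had medians of 13.6% and 5.60%. The median GC content of the 21 nt around the row was 85.7% for stop falls and 90.5% for mismatch falls, against 66.7% for rows not called and 52.4% for stop rises. Of the stop falls 119 were in 28S and 18 in 18S, 6 of the latter within its first 12 rows.

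Read ratio moved with these falls. The CMC library had about 70% of the mock library's crossing reads at a typical row (median ratio 0.709 at rows not called for stops), but 1.70 times as many at the median stop fall and 2.02 times at the median mismatch fall, and a ratio of 0.40 at the median stop rise. The ratio exceeded 1 at 101 of 137 stop falls (73.7%), 83 of 580 stop rises (14.3%) and 27.9% of rows not called. Crossing reads enter both this ratio and the shares, so the ratio and the calls are not independent measures. By GC content of the 21 nt, the median ratio was 0.349 below 40%, 0.443 from 40 to 60%, 0.700 from 60 to 80% and 1.34 from 80% up. Stop falls made up 0.174%, 1.28%, 0.801% and 4.46% of rows in those classes. The part of read depth or of GC content in the falls was not tested.

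**Figure D5:**
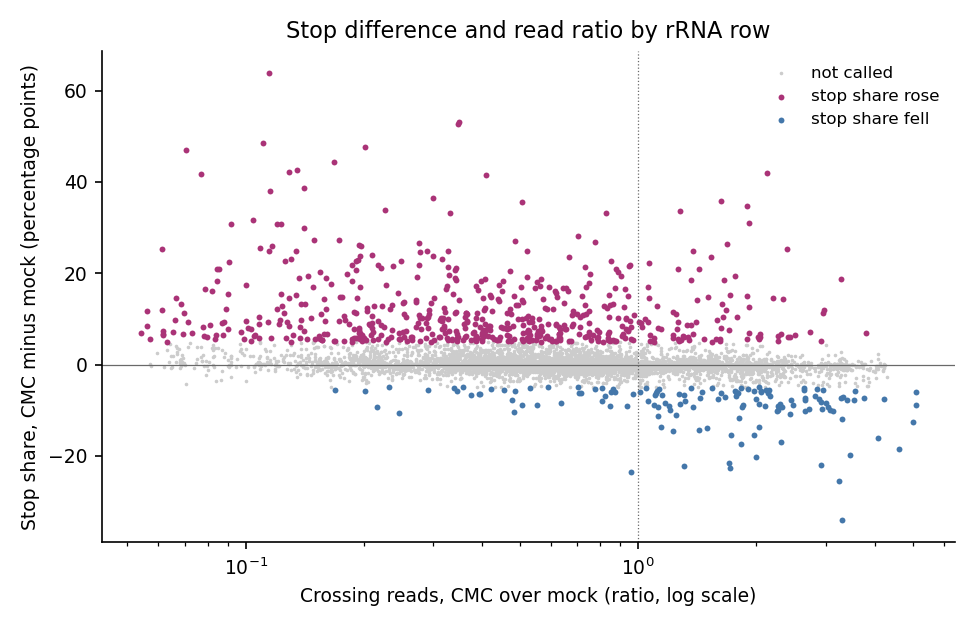
Stop share difference (percentage points) against the ratio of crossing reads in the CMC and mock libraries (log scale) at the 6924 rows. Rows whose stop share fell lie mostly to the right of a ratio of 1 (101 of 137), and rows whose stop share rose mostly to its left, with 83 of 580 above 1. Crossing reads enter both axes, which are therefore not independent.

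C3337 of 28S, inside a run of cytidines, had the deepest mismatch fall, with 28.1% (25.8 to 30.4%) with CMC and 54.2% (50.9 to 57.4%) in the mock library. C3050 of 28S was misread in 15.3% against 31.6%, C3452 of 28S in 2.93% against 14.8% and C622 of 28S in 4.37% against 14.3%. C3452 and C622 rest on few mock reads, 128 at C3452 and 286 at C622. Among other nucleosides, A3215 of 28S was misread in 6.17% against 15.2%, G666 of 28S in 7.62% against 15.5% and G3048 of 28S in 3.81% against 11.6%. The deepest stop falls were at C3453 of 28S (23.9% against 58.0%), C3334 of 28S (15.4% against 41.0%), A2 of 18S (35.3% against 58.8%) and C3216 of 28S (28.1% against 50.8%). A2 lies next to the 5′ end, and its mismatch share rose while its stop share fell. With 1000 or more reads required in both libraries, 114 stop falls and 19 mismatch falls were counted.

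C3337 of 28S: cgcccccCcccccac
C3050 of 28S: cccgcgcCctctctc
C3334 of 28S: gcgcgccCccccccc
C3216 of 28S: ccgggcaCccggggg
G4851 of 28S: gccgcgcGccgggac

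The capital marks the row that fell. G4851 of 28S is a better covered example, with 29712 CMC and 17449 mock reads, and stopped 10.2% against 31.7%. The longest runs of stop falls were 618 to 623, 892 to 896 and 3333 to 3337 of 28S, with 6, 5 and 5 rows and no uridine in any of them. By stretches of 500 nt, falls were most frequent in 28S from 3001 to 3500 (31 rows, 6.29%), where the median mock depth was 3395 reads, and from 501 to 1000 (26 rows, 5.24%), where it was 11418. Of the 137 falls, 50 had under 5000 mock reads. A deeply covered fall was A4510 of 28S, with a stop share of 3.96% against 14.6% on 56725 and 230248 reads. Of 1153 uridines only 5 fell in stops: U3545 (25.9% against 42.9%), U8 of 18S (4.14% against 13.5%), U4163 (7.79% against 16.9%) and the 2′-O-methylated U4620 (1.33% against 7.06%) were the 4 deepest, those without a named rRNA being in 28S. The fifth was U3032 of 28S, just past the bar and named after its value was seen.

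The same rows were set beside the other conditions, each of which has its own mock library. With magnesium the mismatch share rose at 11 rows (0.159%) and fell at 6 (0.0868%), and the stop share rose at 637 (9.22%) and fell at 127 (1.84%). With HIV RT mismatch rose at 73 rows (1.05%) and fell at 7 (0.101%), and stops rose at 698 (10.1%) and fell at 254 (3.66%). The listed pseudouridines had median mismatch differences of 3.98 points with manganese, 0.517 with magnesium and 4.27 with HIV RT, and median stop differences of 8.35, 18.6 and 14.5. Listed sites called for stops numbered 63, 89 and 81. The lowest median stop difference at the sites themselves was thus that of manganese. At rows 5′ of them it was that of magnesium. The difference between conditions was not tested, with 1 pair of libraries each.

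Shared calls are given as a share of each list. Of the 89 mismatch rises with manganese, 9 were also called with magnesium (10.1% of them, and 81.8% of the 11 there) and 38 with HIV RT (42.7% and 52.1% of the 73). Of the stop rises, 384 were shared with magnesium (66.3% and 60.3% of each list) and 381 with HIV RT (65.7% and 54.7%), over rows compared in both. Stop falls were shared at 75 rows with magnesium (58.6% and 59.1%) and 32 with HIV RT (23.4% and 12.7%). The 5′ shoulder also differed in weight: at the 71 listed sites with a 5′ neighbour other than uridine, the neighbour's median stop difference was 5.70 points with manganese, 3.29 with magnesium and 6.75 with HIV RT, beside 7.71, 18.3 and 14.4 at the site. The neighbour exceeded the site at 36, 11 and 21 of the 71.

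At single sites the balance of misreading and termination differed between conditions. The rows given here include calls named because they lay farthest from the other conditions. Among these are U1791 of 28S for stops, and Ψ1643, Ψ1347 and Ψ1692 of 18S for mismatch. The large gaps at rows named in this way follow from the choice, and they do not show how common such gaps are. Ψ3844 of 28S had stop differences of 10.6 points with manganese, 49.2 with magnesium and 46.8 with HIV RT, and Ψ3851 of 28S 10.4, 49.1 and 41.0. U1791 of 28S went the other way, at 48.5, 22.2 and 11.5. Ψ1643 of 18S had mismatch differences of 28.2, 0.987 and 9.47 points, and Ψ1081 of 18S 13.0, 2.18 and 1.38, with stop differences there of 1.33, 23.0 and 38.7. Ψ1347 and Ψ1692 of 18S were misread more by HIV RT, with 28.3 and 33.9 points, than with manganese, with 15.0 and 19.2. At the m1acp3Ψ of 18S the stop share rose from 26.8% to 68.1% with magnesium and from 10.5% to 51.1% with HIV RT, while the mismatch share dropped in all 3 pairs.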

How the data were processed

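The submitters' processing notes name Trimmomatic 0.32 and Bowtie 1.0. How they were set, which rRNA reference was used and how reads were counted is not stated in the labels or headers. Per the file headers, each deposited table gives for every rRNA position the reference base, the count of crossing reads, its split by base read, and the number of stops. The fractions the authors deposited beside them (mismatch rate, stop frequency) were recomputed from the counts within 1e-09 in all 12 tables. Human rDNA has many near-identical copies, which are not separated here.

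Shares were compared with Fisher's exact test (SciPy 1.17.1, pandas 2.3.3) and Benjamini-Hochberg adjustment over 6924 rows. The script was tested on simulated data. Intervals of medians are 95% binomial order-statistic intervals over rows. The list of modified positions held 241 entries, and 16 whose base did not match the tables were dropped. Rows named are, per measure and nucleoside, the 5 largest called rises (12 at uridine) and 4 largest falls, the 3 called mismatch rises with the highest share of each base, the 6 largest calls within 3 nt of listed sites, the longest runs, the 4 calls farthest from the other conditions, and all other listed base modifications. G615, G616 and the reads at run ends were singled out after their values were seen. The comparison, the lists and the rules were chosen with earlier results of these data known. Alternatives covered the read minimum, the size bar, an added ratio, centring, row ends, listed rows left out and pooled reads.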

Additional observations from a re-analysis of the deposited data

Results flagged for a closer look

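At 8 rows there was a called stop difference in 1 direction with manganese and a called one in the opposite direction in another condition. The difference between conditions was not tested, because each condition has 1 pair of libraries. Against magnesium these were G638 of 28S (6.85 points with manganese, -8.67 with magnesium), C3541 of 28S (15.0 and -5.07), G3562 of 28S (-5.11 and 6.01), C4038 of 28S (6.74 and -6.30) and U4163 of 28S (-9.07 and 5.11). Against HIV RT they were G156 of 18S (12.2 points with manganese, -8.23 with HIV RT), C3199 of 28S (5.95 and -12.8), C3481 of 28S (-7.82 and 6.33) and again U4163 of 28S (-9.07 and 5.70). U4163 is thus the only row of these that opposed both other conditions, on 40598 CMC and 47844 mock reads. All but G156 of 18S lie in sequence with 76.2% to 90.5% GC over 21 nt. No mismatch call opposed another condition's call.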

How the results depend on the processing

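With 1 library per group, no replicate could be left out. No paired analysis was possible because the groups hold 1 library each. The counts depended mainly on the size bar. At 2 points, 373 rows rose and 104 fell in mismatch, and 1129 rose and 563 fell in stops. At 10 points these were 17, 3, 258 and 34. Asking for a ratio of at least 2 as well left 87 stop falls. Leaving out listed positions and 1 nt on each side left 43 mismatch rises. Counts under every other alternative were within 1.5 times those reported: read minimums of 10 and 1000, the size bar alone, centring on unlisted rows, the ends left out, and stops over crossing reads.

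Pooling reads over rows gave larger mismatch differences at guanosine (0.412), uridine (1.26) and listed pseudouridines (6.42), and 0.0591 at cytidine. For stops it gave 0.378 at guanosine, 4.58 at uridine, 17.5 at listed pseudouridines and -0.0324 at cytidine, and it reversed adenosine to 0.0304. In 18S alone the mismatch medians of guanosine and uridine were 0.247 and 0.705, and cytidine's stop median was -0.219, against -0.0608 in 28S alone. In the spectrum, the mean of the rows' own shares gave 63.8% for adenosine read as U, 74.3% for cytidine, 58.7% for guanosine and 51.6% for uridine read as C. The share above the mock library gave 57.8%, 62.2%, 55.4% and 53.3%. At the 70 listed sites with no other within 3 nt the medians were 3.83 points of mismatch and 7.07 of stops. Thin GC-rich 28S rows limit what depth allows.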
